A study of Arabidopsis thaliana with 8 samples.

Results

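Cytochrome P450 enzymes are membrane-bound haem proteins that insert an oxygen atom into their substrates, with electrons passed on by a P450 reductase. Plants carry large P450 families that make and break down hormones, phenolics, glucosinolates, sterols and waxes, and 2 steps of gibberellin synthesis, ent-kaurene oxidase and ent-kaurenoic acid oxidase, are P450 reactions. The genes described here are those whose single listed gene symbol is CYP followed by a family number and a subfamily letter. The rule found 23 probe sets for 23 genes, among 13513 probe sets with 1 gene and 22746 probe sets in all after controls were left out. The gene table used for names holds 236 genes with such a symbol, and the other P450 genes had no probe set with 1 listed gene in the annotation used here.

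The study asked which genes respond early to gibberellin in seedlings that make very little of it. The GA4 group was shoots of ga1-3 seedlings in the Ler background, 8 days old, sprayed with 2 µM of the bioactive gibberellin GA4 and cut off 1 h later (4 arrays). The water group was ga1-3 shoots of the same background and age, sprayed with water and cut off after the same time (4 arrays). All seedlings thus carried the ga1-3 mutation, which blocks the synthesis of ent-copalyl diphosphate, an early gibberellin precursor, and all were raised under constant light at 22 °C, on plates that held 2% sucrose. RNA came from 100 mg of shoot tissue, was labelled with biotin and was read on Affymetrix arrays, where each transcript is read by a set of short probes, the probe set. The labels do not say how many seedlings made up a replicate. No wild-type or unsprayed group was analysed here.

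The deposited values are MAS5 signals, the brightness of a probe set on a linear scale, with trimmed means of 500.04 to 500.05 on the 8 arrays. The replicates form 2 sets that look unlike each other under either spray: median signals were 203 to 223 on the 4 arrays of replicates 1 and 2, against 163 to 173 on the 4 arrays of replicates 3 and 4. The 3′ to 5′ signal ratio of the actin control lay between 2.72 and 6.81 in the set of replicates 1 and 2, against 1.496 and 1.76 in the other set. That of ubiquitin was 1.30 to 2.80 in the set of replicates 1 and 2, against 1.32 to 1.59. One pair of GAPDH controls gave 0.929 to 1.34 against 0.8292 to 0.982, and another gave 2.13 to 5.43 against 0.958 to 1.14, in the same order of sets. Of the root hair markers EXPA7 and EXPA18, which should be low in shoots, signals were 52.1 to 126 and 11.8 to 127, and that of the shoot apex marker CLV3 was 4.17 to 11.8. None of the 3 was bright enough on average to be tested. The markers of green tissue and the mutated gene GA1 had no probe set with 1 listed gene, so the tissue and the mutation were not checked here.

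Of the 23 P450 genes 19 belong to CYP71B, a plant-specific subfamily best known for PAD3 (CYP71B15), which makes the defence compound camalexin and is not among the 23. The others are CYP84A4, an enzyme of arabidopyrone synthesis, CYP79A2, which converts phenylalanine to an aldoxime on the way to benzylglucosinolate, CYP78A9, known for its effect on fruit and flower growth, and CYP51G2, a transcribed pseudogene related to the sterol demethylase gene. Of the CYP71B genes, CYP71B27 is also annotated as a transcribed pseudogene. Most lie beside each other in the genome. In the order of genes, 17 of the 23 fell into 3 groups whose neighbouring members were at most 7 gene positions apart. The first of these ran from AT3G26150 (CYP71B16) to AT3G26330 (CYP71B37) with 11 members. CYP71B27, CYP71B28 and CYP71B29 formed another, from AT1G13070 to AT1G13100, and CYP71B5, CYP71B30P and CYP71B31 the third, from AT3G53280 to AT3G53300. No gene had more than 1 of the probe sets.

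Probe sets with a mean log2 signal of at least 6.78 over all 8 arrays (110 units), the brightest 60%, were tested. Of the 23 P450 probe sets 6 (26.1%) reached this level, and all 6 were CYP71B genes: CYP71B5, CYP71B6, CYP71B26, CYP71B28, CYP71B29 and CYP71B34. Just inside the limit were CYP71B26 at 6.99 and CYP71B5 at 7.35, and just outside were CYP51G2 at 6.48 and CYP71B35 at 6.27. On the single arrays, 5 genes were above the level on all 8, 11 were above it on none, and CYP71B26 was above it on 6. No detection calls were used, so a signal below the level cannot be told from background. Probe sets bind with different strength, so the levels of different genes are not ranked.

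**Figure D1:**
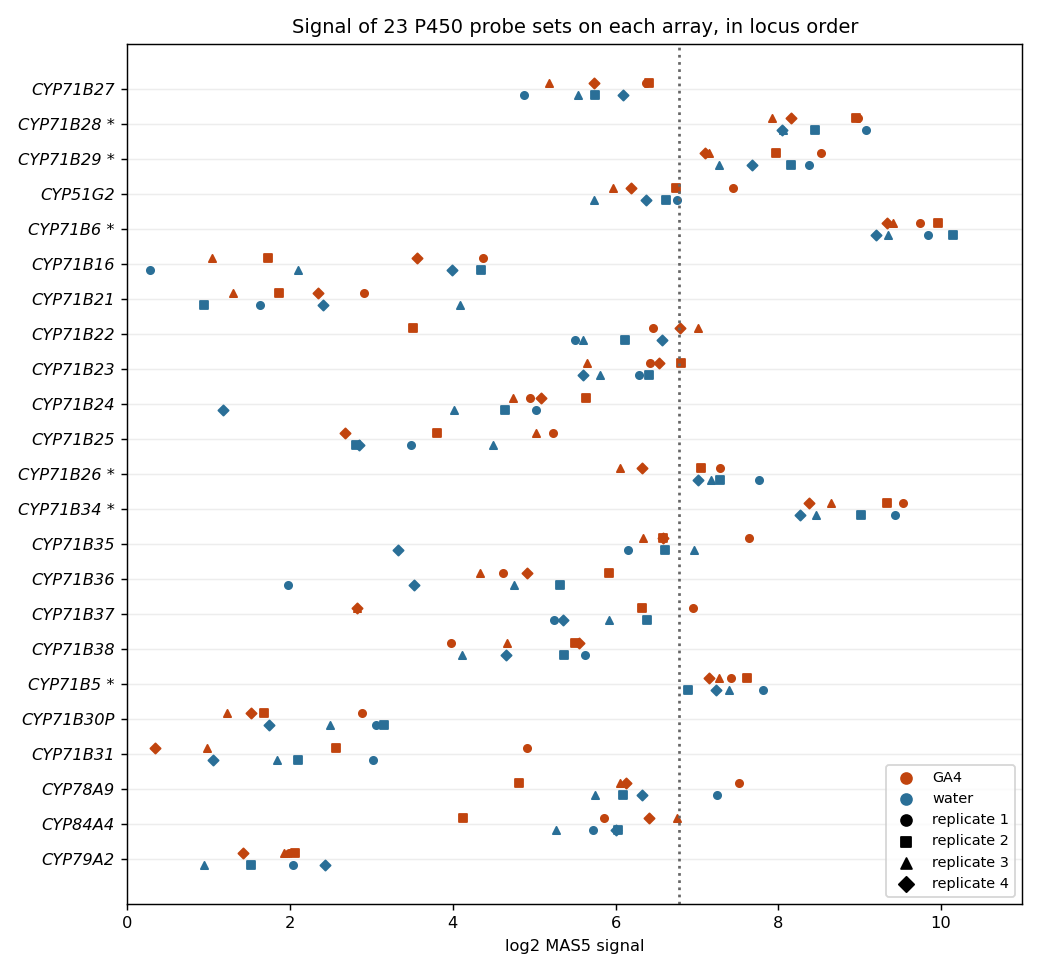
Log2 MAS5 signal of the 23 P450 probe sets (rows, in locus order) on each array, with GA4 arrays in red above water arrays in blue and the replicate number by symbol. The dotted line is the filter level of 6.78, and the 6 genes with an asterisk were tested. CYP71B6, CYP71B28 and CYP71B34 lie right of the line on every array, while 11 genes lie left of it on all 8.

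No P450 gene among the 6 tested passed the test of GA4 against water. In limma without a block 0 of the 6 tested P450 genes had an adjusted p under 0.05, against 2 of 13648 probe sets (0.0147%). With the replicate number as a block 0 of 6 passed, against 40 of 13648 (0.293%), and with a block on the 2 replicate sets 0 of 6, against 32 (0.234%). With the replicate block the count over all probe sets was 14 without replicate 1 and 8 without replicate 2. It was 53 without replicate 3 and 43 without replicate 4, and 1 when any single array was left out without a block. None of the 6 passed in these fits. At an unadjusted p under 0.05 there were 0 of 6 without a block (2.65% of all tested) and 1 of 6 with the replicate block, CYP71B26 (11.8% of all tested). The median log2 difference, GA4 minus water, was 0.01 over the 6 genes and 0.01 over all tested probe sets. The intervals below, from 4 arrays a group, give the range of differences that these data allow. An interval without 0 can still miss the threshold after adjustment, as that of CYP71B26 did with the replicate block. In whole shoots, fewer cells of a type and less RNA per cell cannot be told apart.

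CYP71B26 (AT3G26290), a member of the gene group at AT3G26150 to AT3G26330, was lower in GA4 in each replicate number. Its signals were 156, 133, 66.5 and 80.3 units in GA4 replicates 1 to 4, against 217, 156, 144 and 129 units in water replicates 1 to 4. The GA4 arrays of replicates 3 and 4 were the lowest of the 8 and lay below the filter level, and the groups overlapped, since GA4 replicates 1 and 2 were above water replicate 4. The mean log2 signal was 6.68 ± 0.58 in GA4 and 7.31 ± 0.32 in water (SD, n = 4 each). The log2 difference was −0.63 (limma SE 0.33, 95% confidence interval −1.35 to 0.10, adjusted p = 1.00). With the replicate block its interval was −1.13 to −0.12 (SE 0.23, adjusted p = 0.332), so CYP71B26 did not pass in either fit. The difference was −0.36 on replicates 1 and 2 and −0.90 on replicates 3 and 4, and the test of the difference between these, at −0.54 (SE 0.43), gave an adjusted p of 0.809 in limma. A value lower in all 4 replicate numbers was found in 10.0% of all tested probe sets, so 1 of 6 is near the background.

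CYP71B34 (AT3G26300), which lies 2 gene positions from CYP71B26, was higher in GA4 in each replicate number, by small amounts. Its signals were 743, 644, 399.9 and 333 units in GA4 replicates 1 to 4, against 694, 517, 354 and 307 units in water replicates 1 to 4. The arrays of replicates 1 and 2 were all above those of replicates 3 and 4, whatever the spray, and the treatments overlapped. The log2 differences by replicate number were 0.10, 0.32, 0.18 and 0.12, with a mean of 0.18 (limma SE 0.33, 95% confidence interval −0.55 to 0.91, adjusted p = 1.00). Its spread between replicate numbers was small, with an SD of the 4 differences of 0.10. With the replicate block the interval was −0.10 to 0.45 (SE 0.12, adjusted p = 0.60). Values higher in all 4 replicate numbers were found in 9.64% of all tested probe sets. The direction of CYP71B34 against that of its neighbour CYP71B26 was not tested.

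CYP71B6 (AT2G24180), which acts on indole-3-acetonitrile in the indole branch of defence metabolism, showed almost no difference. It had 858, 997, 681 and 647 units in GA4 replicates 1 to 4, against 912, 1132, 653 and 587 units in water replicates 1 to 4. GA4 was the lower in replicates 1 and 2 and the higher in replicates 3 and 4. The log2 difference was −0.02 (limma SE 0.24, 95% confidence interval −0.56 to 0.53, adjusted p = 1.00). The replicate block narrowed this interval to −0.28 to 0.24 (adjusted p = 0.968).

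**Figure D2:**
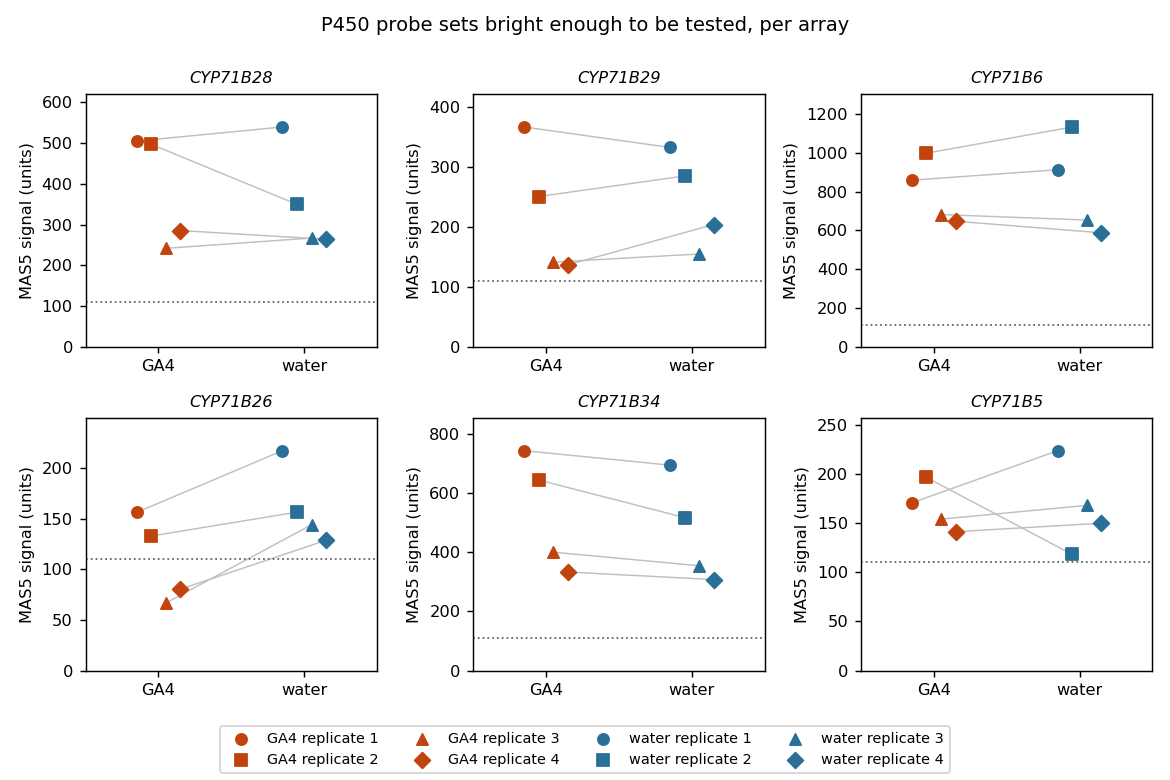
MAS5 signal (units, linear axis starting at 0) of the 6 tested P450 genes on each array, with GA4 left in red and water right in blue. Grey lines join arrays of the same replicate number and the dotted line is the filter level of 110 units. All 4 lines of CYP71B26 lie higher at the water end, from 129 to 217 units there, and in CYP71B6, CYP71B28, CYP71B29 and CYP71B34 all arrays of replicates 1 and 2 lie above those of replicates 3 and 4.

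CYP71B28 (AT1G13090) and CYP71B29 (AT1G13100) are immediate neighbours. CYP71B28 had 505, 497, 242 and 285 units in GA4 replicates 1 to 4, against 539.5, 349.7, 267 and 264 units in water replicates 1 to 4. Only in replicate 2 was the GA4 array clearly the higher, by 0.51 on the log2 scale, and the other 3 differences lay between −0.14 and 0.11. The mean difference was 0.10 (limma SE 0.32, 95% confidence interval −0.61 to 0.80, adjusted p = 1.00). CYP71B29 had 367, 251, 142 and 137 units in GA4 replicates 1 to 4, against 333, 285, 155 and 204 units in water replicates 1 to 4. It was lower in GA4 in 3 of 4 replicate numbers, most in replicate 4 at −0.58. The mean log2 difference of CYP71B29 was −0.19 (limma SE 0.37, 95% confidence interval −1.002 to 0.63, adjusted p = 1.00).

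CYP71B5 (AT3G53280) had the least regular difference between GA4 and water among the 6, with an SD of the 4 differences by replicate number of 0.49, although its residual SD within the groups was the smallest of the 6. Its signals were 171, 197, 154 and 141 units in GA4 replicates 1 to 4, against 224, 118, 168 and 150.0 units in water replicates 1 to 4. The highest and the lowest of the 8 values were both water arrays, of replicates 1 and 2. The log2 differences were −0.39, 0.73, −0.13 and −0.09, with a mean of 0.03 (limma SE 0.25, 95% confidence interval −0.52 to 0.58, adjusted p = 1.00). After quantile normalization the difference of CYP71B5 was −0.04. CYP71B5 was the only gene of the 6 whose residual SD was not smaller with the replicate block, at 0.34 with it and 0.31 without it.

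**Figure D3:**
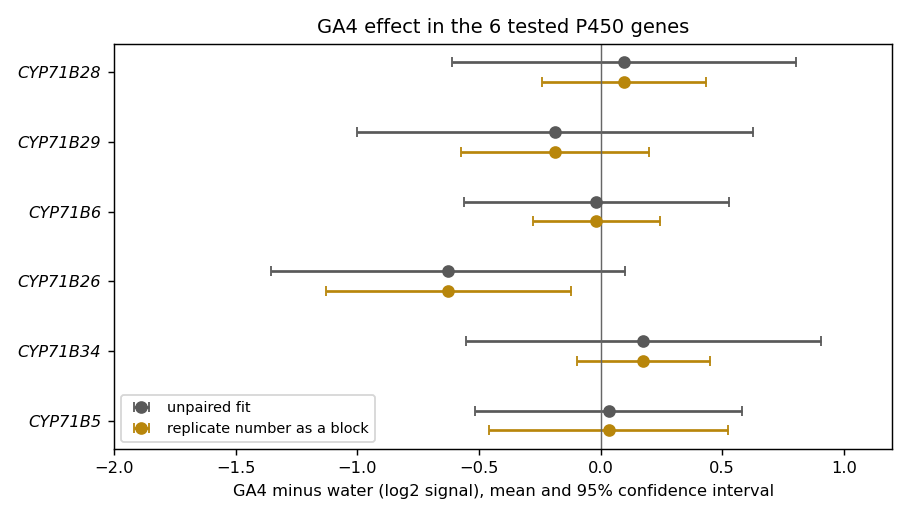
GA4 minus water on the log2 scale for the 6 tested P450 genes, with the mean as a point and the 95% confidence interval of limma as a bar, without a block in grey and with the replicate number as a block in gold. All intervals include 0 except that of CYP71B26 with the block, from −1.13 to −0.12, which did not pass after adjustment.

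In the deposited signals the 6 genes differed more between the replicate sets than between the sprays. Each had a higher mean log2 signal on replicates 1 and 2 than on replicates 3 and 4, by 0.17 in CYP71B5, 0.60 in CYP71B6, 0.71 in CYP71B26, 0.82 in CYP71B28, 0.89 in CYP71B34 and 0.96 in CYP71B29. The median of these was 0.76, against 0.14 over all tested probe sets, of which 60.7% were higher on replicates 1 and 2. This contrast was not seen in the 17 P450 genes below the filter, with a median of 0.35, against 0.52 over all probe sets below it. In CYP71B6, CYP71B28, CYP71B29 and CYP71B34 all 4 arrays of replicates 1 and 2 were above all 4 arrays of replicates 3 and 4, or 4 of 6 genes against 23.7% of all tested probe sets. CYP71B34 ran from 517 to 743 units on replicates 1 and 2 and from 307 to 399.9 units on replicates 3 and 4. CYP71B29 ran from 251 to 367 units and from 137 to 204 units. After quantile normalization the median was 0.61 for the 6 genes and 0.01 for all tested probe sets, and CYP71B5 was then at −0.17. In CYP71B26 the order turned round, at 0.31 between the sets and −0.71 between the sprays, and in the other 5 genes the difference between the sets remained the larger in size. The labels do not say what the replicate numbers mark, and the part of the 3′ to 5′ ratios in these values was not tested. The residual SD of the 6 genes had a median of 0.49 without a block and 0.21 with the replicate block, against 0.34 and 0.20 over all tested probe sets. The difference in GA4 effect between the replicate sets passed in 0 of the 6 genes and in 0 of 13648 probe sets (0.0%) in limma without a block. At an unadjusted p under 0.05 these counts were 0 and 957 (7.01%). Without GA4 replicate 2, 10 of 13648 passed without a block. With the block 0 of 6 passed, against 55 of 13648 (0.403%). This last count was unstable, at 840 without replicate 1, 1248 without replicate 2, 9 without replicate 3 and 36 without replicate 4, with 0 of the 6 genes past the threshold each time.

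The other 17 P450 genes lay below the filter, and their values are given as a description. Their mean log2 differences ran from −0.997 in CYP71B37 to 1.39 in CYP71B24, with a median of 0.12, 10 higher and 7 lower. These sizes rest on signals near background: with all signals raised to a floor of 32 units they ran only from −0.18 in CYP78A9 to 0.61 in CYP71B35, with 11 higher, 1 lower and 5 at 0. CYP71B24 was then at 0.17, and the sign turned in 3 genes, CYP71B22, CYP71B37 and CYP71B38. Over all 9098 probe sets below the filter the median was 0.27 in the deposited signals, and 68.4% were higher in GA4. At the floor of 32 units this share was not counted. The 11 higher against 1 lower thus have no background, and are not read as a lean of these genes. The SD of the 4 differences by replicate number had a median of 1.27 in these 17 genes and 0.30 in the 6 tested ones. When all probe sets were tested without a filter, 0 of 23 P450 genes passed in limma, against 1 of 22746 (0.0044%), and 0 of 23 with the replicate block, against 21 (0.0923%). At an unadjusted p under 0.05 there were 0 of 23 without a block (3.4% of all probe sets) and 1 of 23, CYP71B26, with it (9.95% of all probe sets).

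Of the 4 genes outside CYP71B, none lay on the same side in all 4 replicate numbers. CYP84A4 had 58.0, 17.5, 108 and 84.8 units in GA4 replicates 1 to 4, against 52.7, 65.2, 38.6 and 64.3 units in water replicates 1 to 4, and its GA4 arrays held both the lowest and the highest value. CYP78A9 had 183, 28.0, 66.2 and 69.7 units in GA4, against 151, 68.0, 53.5 and 80.0 units in water, and was highest on the arrays of replicate 1 in both groups. CYP51G2, the pseudogene, had 174, 107, 62.6 and 72.9 units in GA4, against 108, 98.2, 53.1 and 83.0 units in water. It was the higher in GA4 in 3 of 4 replicate numbers. CYP79A2 stayed between 2.69 and 4.16 units in GA4 and between 1.92 and 5.37 units in water, far below the filter level on every array.

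Among the CYP71B genes below the filter, CYP71B30P was the 1 that was lower in GA4 in all 4 replicate numbers (3.33% of all probe sets below the filter were), at 7.40, 3.20, 2.34 and 2.86 units in GA4 replicates 1 to 4, against 8.29, 8.90, 5.62 and 3.33 units in water replicates 1 to 4. With both signals set to a floor of 32 units its difference was 0.00, so no size is given. None of the 17 was higher in all 4 (12.5% of all probe sets below the filter were). In CYP71B24 1 water array lay far below the rest. It had 31.0, 49.9, 26.7 and 33.8 units in GA4, against 32.5, 25.02, 16.2 and 2.27 units in water, all below the filter level. CYP71B35, next to CYP71B34, had 199.9, 95.7, 80.9 and 95.7 units in GA4, against 71.2, 97.1, 125 and 9.99 units in water, with water replicate 4 far below the rest. CYP71B37 had 123, 80.3, 7.05 and 7.05 units in GA4, against 37.9, 83.5, 60.3 and 41.0 units in water. Its GA4 arrays of replicates 3 and 4 were the lowest of the 8. With the floor its mean difference was 0.0941: replicates 1 and 2 gave 0.82, and the other 2 numbers gave −0.63. Without this floor, a filter or a block, the difference in GA4 effect between the replicate sets was −3.64, with an adjusted p of 0.70 in limma. At an unadjusted p under 0.05 in that fit there was 1 of 23, CYP71B37 (6.61% of all probe sets).

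**Figure D4:**
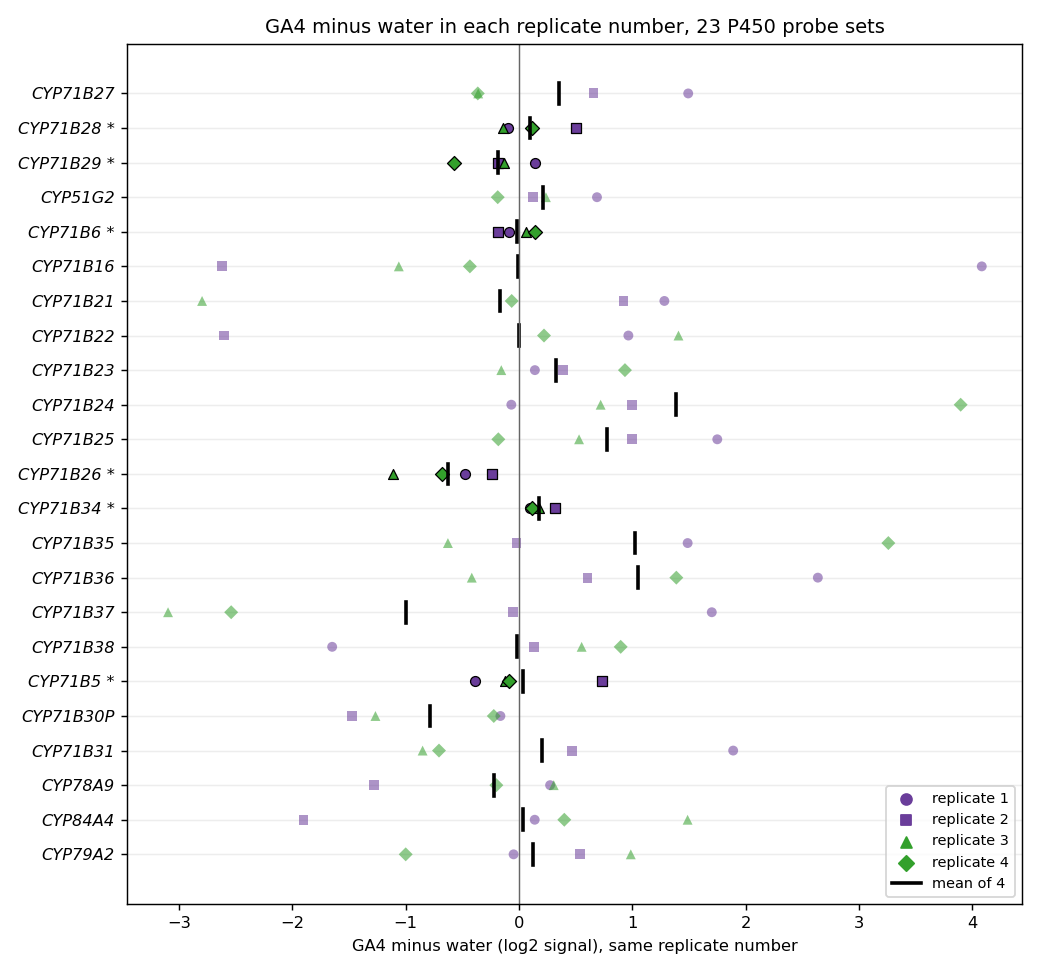
GA4 minus water on the log2 scale in each replicate number for the 23 P450 probe sets (rows, in locus order), with replicates 1 and 2 in purple, replicates 3 and 4 in green, and the mean as a black bar. Genes with an asterisk and outlined symbols were tested. Their points lie between −1.11 and 0.73, while those of the genes below the filter reach −3.10 in CYP71B37 and 4.08 in CYP71B16, from signals near background. With a floor of 32 units all points of CYP71B16 lie at 0 and the lowest of CYP71B37 at −0.91.

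The rest of the CYP71B genes below the filter were low or mixed in direction. CYP71B16, CYP71B21, CYP71B25, CYP71B31, CYP71B36 and CYP71B38 stayed under the filter level on all 8 arrays, as did the pseudogene CYP71B27. CYP71B16 ran from 2.06 to 20.6 units in GA4 and from 1.22 to 20.3 units in water, and CYP71B31 from 1.27 to 30.1 units in GA4 and from 2.07 to 8.11 units in water. CYP71B23 was higher in GA4 in 3 of 4 replicate numbers, with 50.1 to 112 units in GA4 and 48.5 to 85.3 units in water. CYP71B36 was also higher in 3 of 4, with 20.2 to 60.5 units in GA4 and 3.93 to 39.8 units in water. The same count held for CYP71B22, CYP71B24, CYP71B25, CYP71B38, CYP51G2 and CYP84A4, while CYP71B16 and CYP71B37 were lower in 3 of 4. The share of all probe sets below the filter with such a count was not taken, but 68.4% of them had a higher mean in GA4. CYP71B27 was higher in GA4 on replicates 1 and 2, by a mean of 1.08, and lower on replicates 3 and 4, at −0.36. Over all probe sets below the filter the median difference was also larger on replicates 1 and 2, at 0.49, against 0.06 on replicates 3 and 4. For the 17 P450 genes below the filter these medians were 0.47 and 0.05. In none of the 23 P450 genes described here, tested or not, were all 4 GA4 arrays on 1 side of all 4 water arrays. Such a separation was found in 2.29% of all tested probe sets and in 2.77% of those below the filter.

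Lists of P450 genes by pathway covered 75 loci, among them 2 of P450 reductases. Only CYP79A2 and CYP78A9 had a probe set with 1 listed gene, and neither was tested. The ent-kaurene oxidase, the ent-kaurenoic acid oxidases and the other gibberellin P450s (6 loci), the brassinosteroid P450s (8 loci), the abscisic acid hydroxylases (4 loci) and the P450s of jasmonate, cytokinin, phenylpropanoid, camalexin, cutin, sterol and carotenoid metabolism were therefore not analysed here. A probe set shared by CYP71B20 and CYP71B19 was at 9.44 ± 0.29 in GA4 and 9.52 ± 0.27 in water (mean log2 signal ± SD, n = 4 each). Its signals were 636, 544, 815 and 831 units in GA4 replicates 1 to 4. In water replicates 1 to 4 they were 856, 564, 747 and 811 units. On the GA4 arrays this probe set was lower on replicates 1 and 2 than on replicates 3 and 4, unlike the 6 tested genes. It is not counted among the 23, since its signal cannot be divided between the 2 genes.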

How the data were processed

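Per the labels, the 8 arrays are 4 biological replicates for each of GA4 and water. The authors deposited intensities computed with MAS5, per the submitters' processing notes. Its version and parameters are not given in the sources used here. Of 22810 probe sets 64 controls were left out. A floor of 1 replaced 703 of the 181968 deposited signals, and log2 was then taken. Gene names came from the platform annotation, updated through the TAIR10.1 gene table by gene identifier (13436 of 13513 matched to a locus), which changed no P450 symbol. Its coordinates are not given.

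The 13648 probe sets with the highest mean were tested with limma 3.58.1 in R 4.3.3 (lmFit, eBayes with a mean-variance trend, 2-sided, Benjamini-Hochberg adjustment over all of them, threshold 0.05). The code was tested on simulated data. Arrays with the same replicate number correlated at 0.616 to 0.685 in their deviations from the group means, above the minimum of 0.1, so results are also given with the replicate number as a block. Arrays of different number but the same replicate set also correlated, at 0.367 to 0.599. The labels call the replicates biological but do not say what separated them. The p-values rest on the spread between these arrays, which may also hold technical differences.

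Named genes are tested members of the pathway lists, the 6 smallest p in each direction, calls, same-direction members and neighbouring pairs, which took in all 6 tested genes. Members and lists were chosen with earlier results of these data known. The number of arrays limits the precision.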

Additional observations from a re-analysis of the deposited data

Results flagged for a closer look

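In 46 groups of 4 arrays (23 genes in 2 treatments), 1 array stood far from the other 3 by Dixon's test. This was the CYP71B22 signal on GA4 replicate 2, at 3.51 log2 (11.4 units), against 88.4, 129 and 111 units on GA4 replicates 1, 3 and 4 and 45.3 to 95.05 units in water. The gene lies below the filter, and chance gives such a gap in about 1 in 20 groups. In the 12 groups of the 6 tested genes no array stood apart in this way.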

How the results depend on the processing

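The count of P450 genes past the threshold was 0 under all 26 alternatives for GA4 against water and under all 23 for the difference between replicate sets. CYP71B26 stayed lower in GA4 under 24 of 24, at −0.90 to −0.36, with adjusted p of 0.328 to 1.00. The count over all probe sets was 2 without a block and 40 with the replicate block. It was 32 with the replicate set block, 20 with quantile normalization and the replicate block, 43 with a floor of 32 units and the block, 1 with no filter and 21 with no filter and the block. With the highest 40% it was 1, and 27 with the block, with array weights 8, and on replicates 1 and 2 or 3 and 4 alone 1 and 9. Leaving out 1 array gave 1 in each case, and leaving out 1 replicate number with the block gave 8 to 53. Of 150 single values of the 6 genes, 125 kept their direction and 25 took the opposite sign, at −0.20 to 0.15. CYP71B5 was at −0.039 with quantile normalization with or without the block, −0.095 with array weights and −0.11 on replicates 3 and 4. CYP71B28 was at −0.063 with array weights and −0.016 on replicates 3 and 4, and CYP71B6 at 0.10 on replicates 3 and 4. With 1 array left out the ranges were −0.064 to 0.32 for CYP71B28, −0.47 to 0.0075 for CYP71B29, −0.16 to 0.15 for CYP71B6, −0.012 to 0.39 for CYP71B34 and −0.11 to 0.19 for CYP71B5. With 1 replicate number left out and the block they were −0.042 to 0.17 for CYP71B28, −0.07 to 0.038 for CYP71B6 and −0.20 to 0.17 for CYP71B5. The cause of these changes was not tested. Signals below 110 units limit what can be said of 17 of the 23 genes.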
